A study of Mus musculus with 6 samples.

Results

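The nuclear genes of the mitochondrial respiratory chain and ATP synthase were followed across 6 mouse heart arrays. Members were all genes whose symbol begins with Nduf, Uqc, Cox4 to Cox8 or Atp5, together with Sdha, Sdhb, Sdhc and Sdhd. Only probe sets annotated with 1 symbol were used, and where a gene had several the brightest on average was taken. This gave 92 genes of 19938 named on the array. By known function 34 belong to complex I, 4 to complex II, 8 to complex III, 18 to complex IV and 17 to complex V, and 11 are assembly factors.

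Each heart sample was measured on 1 Affymetrix Mouse Gene 1.0 ST array, from mice 6 months old (postnatal day 180). The wild-type (WT) heart was 1 sample. Id control was 2 samples of different genotype: Id control 1 was Id1F/+ Id3-/-, with a floxed and a wild-type Id1 allele and no Id3, and Id control 2 was Tie2Cre+ Id1-/- Id3+/-, with no Id1 and 1 working Id3 allele. The conditional knockout (Id cKO) was 1 sample, Tie2Cre+ Id1F/- Id3-/-. A further pair of Id cKO hearts was treated or not treated with recombinant mouse IGFBP3, which circulates as a carrier of insulin-like growth factors. The design text calls this pair incubated. Id1 and Id3 encode inhibitors that pair with E proteins, a class of transcription factors, and block their binding to DNA, and Tie2Cre drives Cre in endothelial and blood cells. Both Id controls and all 3 Id cKO hearts thus lacked at least 1 Id allele, and Id control 2 carried Tie2Cre as the Id cKO hearts did.

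Complexes I to IV pass electrons from NADH and succinate to oxygen and pump protons out of the mitochondrial matrix, except complex II, which pumps none. ATP synthase, or complex V, uses the returning protons to make ATP. Heart muscle is packed with mitochondria, and it builds cytochrome c oxidase (complex IV) with muscle isoforms of several subunits where most other tissues use the common ones.

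The values are log2 expression levels, and a difference of 1 is a doubling. The median of all probe sets was between 5.73 and 5.83 on the 4 arrays of hearts that were not incubated, but 4.45 and 4.51 on the incubated pair. The pair was therefore compared with the other 4 arrays only after quantile normalization, which gives all arrays 1 distribution. The pair also shared 1586 exactly equal values, of which 0 were among the 92 genes. Of the 3 date codes in the labels, 1 covers the Id cKO, WT and Id control 2 arrays, 1 only Id control 1, and 1 the pair. Id1 was at 8.14 in WT and 6.48 in Id cKO, and Id3 at 7.18 and 4.69. Xist was low and Eif2s3y high in WT and in the pair, while Xist was high and Eif2s3y low in both Id controls and Id cKO. A difference between Id cKO and WT therefore cannot be told apart from sex. All 8 cardiomyocyte markers examined, such as Myh6 and Tnnt2, were among the genes compared. The 4 lung markers lay below the level of 6 used as the floor for comparison on every array. Levels in whole heart tissue cannot tell fewer cells of a type from less RNA per cell.

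Probe sets of these genes were bright. Their mean over WT, the Id controls and Id cKO had a median of 10.92, against 6.29 over all genes, and 65 of the 92 averaged at least 10. Differences between the 2 Id control arrays were small, with a median size of 0.08 against 0.14 over all genes. Cox4i2 had the largest one, 0.72. Of the 90 members that reached the floor on any of these 4 arrays, the lowest of these 4 arrays was Id cKO for 56 (62.2%, against 31.1% of all genes). The highest was WT for 44 (48.9%, against 21.7%). The WT array held the lowest level for 3, Atp5j2, Atp5mpl and Cox6b1 (3.33%, against 31.7%). The Id cKO array held the highest for 7, Atp5j2, Cox4i2, Cox8a, Ndufa4l2, Uqcc2, Uqcc3 and Uqcr10 (7.78%, against 26.0%).

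**Figure D1:**
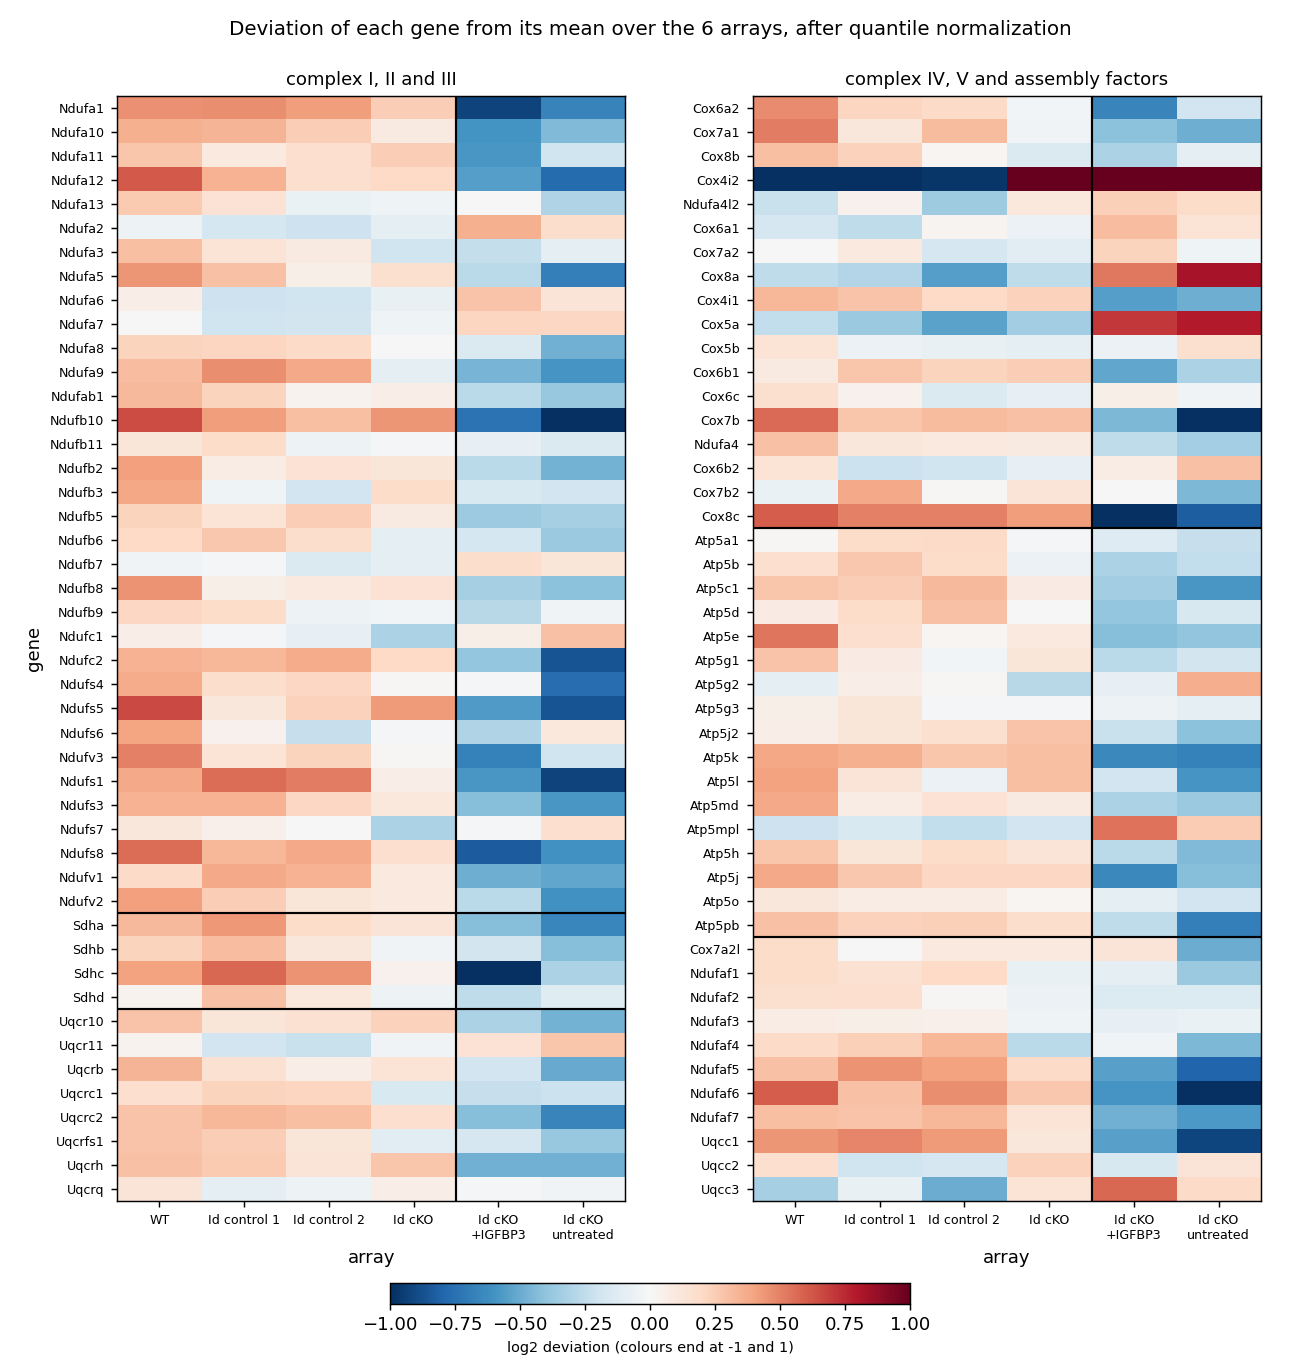
Deviation of each of the 92 genes from its own mean over the 6 arrays after quantile normalization (log2, colours end at -1 and 1), with genes in rows by complex and arrays in columns; the vertical line separates the incubated pair. Most rows pass from warm colours in WT to cold ones in the pair, and Cox4i2 runs the opposite way.

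Respiratory chain transcripts were slightly but widely lower in Id cKO than in WT. Of 90 members compared, 80 were lower (88.9%, against 49.2% of all 11478 genes compared). Their median difference was -0.18, against 0.00 over all genes. Among bright genes, with a level of at least 10 in either heart, the medians were -0.22 over 69 members and -0.04 over 875 genes. These are differences between single arrays and have no replicate check. In size they were small: 0 members were at least 1.5-fold lower (background 3.35%) and only Cox4i2 was at least 1.5-fold higher (background 6.94%). In limma, 0 members passed at an adjusted p of 0.05 (background 0.0348%), and 5 had an unadjusted p below it (background 13.1%), Cox4i2, Cox6a2, Cox7a1, Ndufa3 and Ndufv3. The limma p of a lone array assumes that it varies like the Id control pair, whose spread gives the only residual degree of freedom. The number of animals behind a sample is not in the labels, so a p-value here reflects the spread between these samples alone. Centring the arrays on their medians left 69 of 88 members lower, with a median of -0.11 against 0.08 over all genes.

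Against the Id controls the shift was smaller. Id cKO lay below both Id control arrays for 58 of 89 members (65.2%, background 41.9%) and above both for 18 (20.2%, background 33.5%). The median difference was -0.12, against -0.03 over all genes. Among genes with a level of at least 10 the medians lay closer, -0.14 over 67 members and -0.09 over 905 genes. At a level of at least 10, 48 of 67 members lay below both arrays, or 71.6%, against 54.5% of all genes. After quantile normalization the count was 44 of 89, or 49.4%, against 39.8%. In limma, 0 members passed after Benjamini-Hochberg adjustment (background 0.0177% higher and 0.0% lower), and 9 had an unadjusted p below 0.05 (background 13.5%). None was 1.5-fold below both Id controls (background 2.37%), and Cox4i2 alone was 1.5-fold above both (background 2.63%).

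**Figure D2:**
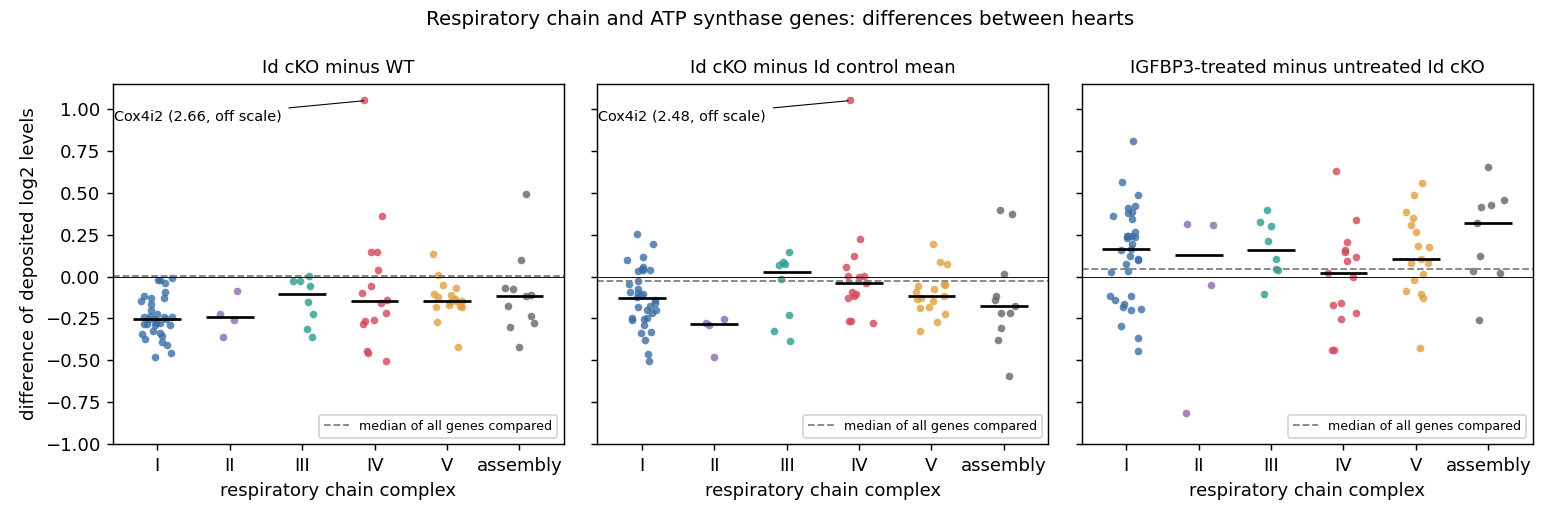
Difference of deposited log2 levels for every compared member, 1 point a gene, by complex (black bar, median of the group; dashed line, median of all genes compared), for Id cKO minus WT, Id cKO minus the Id control mean and IGFBP3-treated minus untreated Id cKO. All 34 complex I points lie below 0 in Id cKO minus WT, and Cox4i2, drawn at the upper edge, is off scale at 2.66 and 2.48.

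Complex I takes electrons from NADH. All 34 of its genes were lower in Id cKO than in WT (background 49.2%), with a median of -0.25, and 30 of 34 after median centring (background 37.9%). The 6 core genes, which include the subunits that carry the flavin and iron-sulfur clusters, had a median of -0.28 against WT and -0.22 against the Id controls. Ndufs1, the largest iron-sulfur subunit, was at 11.62 for WT, 11.79 and 11.80 for the Id controls and 11.34 for Id cKO. Ndufs7, which passes electrons towards ubiquinone, was at 11.07, 11.04, 11.04 and 10.66 in the same order. Ndufv1, which binds NADH, was at 11.90, 12.04, 12.03 and 11.79. In all 6 core genes the Id cKO array was below WT and below both Id control arrays, and this count was 6 under each of the 4 scalings tried.

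Accessory subunits stabilise complex I and were less uniform. Against WT, Ndufa3 had the most negative difference, -0.48, with 11.01 for WT, 10.87 and 10.85 for the Id controls and 10.53 for Id cKO. Ndufa7 had the smallest, -0.01, and its sign turned to 0.05 with median centring. Against both Id control arrays, 16 of 28 accessory genes were lower (background 41.9%). Another 6 were higher (background 33.5%): Ndufa11, Ndufa2, Ndufa6, Ndufa7, Ndufb3 and Ndufs5. Ndufa9, an accessory subunit near the ubiquinone site, was at 11.54 for WT, 11.71 and 11.67 for the Id controls and 11.19 for Id cKO. The Id controls lay close together and Id cKO below them, at a difference of -0.50 ± 0.14 (SE, limma adjusted p = 0.301).

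Complex II is succinate dehydrogenase, shared with the citric acid cycle. Its 4 genes were all lower in Id cKO than in WT (background 49.2%, median -0.24) and below both Id controls (background 41.9%, median -0.28). Sdhc, a membrane anchor, was at 11.31 for WT, 11.47 and 11.39 for the Id controls and 10.95 for Id cKO. Sdhd, the other anchor, was at 11.08, 11.36, 11.20 and 10.99. Sdha, the flavoprotein, was at 12.37, 12.52, 12.28 and 12.14, and the iron-sulfur subunit Sdhb at 11.27, 11.37, 11.21 and 11.01. The 4 genes stayed below both Id controls under each scaling.

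Complex III hands electrons from ubiquinol to cytochrome c. In Id cKO, 3 of its 8 genes were below both Id controls (background 41.9%), the core proteins Uqcrc1 and Uqcrc2 and the Rieske iron-sulfur protein Uqcrfs1. Another 4 were above both (background 33.5%), Uqcr10, Uqcr11, Uqcrh and Uqcrq. Uqcrb lay between the Id controls, at 12.29 for WT, 12.11 and 12.05 for the Id controls and 12.06 for Id cKO. Uqcrc1 was at 12.35 for WT, 12.42 and 12.42 for the Id controls and 12.04 for Id cKO. Uqcrfs1 was at 10.58, 10.58, 10.49 and 10.21. Uqcr11 was at 10.55, 10.38, 10.38 and 10.52, so that Id cKO lay beside WT and both Id controls lower. The median over the 8 genes was -0.10 against WT, where Uqcrfs1 had the most negative difference, -0.36, and Uqcr10 the most positive, 0.00. Against the Id controls it was 0.03.

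Complex V makes ATP in its F1 head, which a stalk joins to the membrane ring. Of its 17 genes, 15 were lower in Id cKO than in WT (background 49.2%, median -0.14) and 13 lay below both Id controls (background 41.9%, median -0.11). After quantile normalization the count below both Id controls was 7 of 17, near the share of all genes, 39.8%. In the F1 head, Atp5a1 (alpha) was at 13.29 for WT, 13.37 and 13.40 for the Id controls and 13.16 for Id cKO. Atp5b, the catalytic beta subunit, was at 13.45, 13.48, 13.48 and 13.29. Atp5e, the epsilon subunit, was furthest below WT at -0.42, but its Id cKO level of 10.20 lay between those of the Id controls, 10.30 and 10.19. Atp5j2, a membrane subunit, was the furthest above WT, at 12.06 in WT and 12.20 in Id cKO. The c-ring genes Atp5g1, Atp5g2 and Atp5g3 encode the same mature protein, and their Id cKO levels differed from the Id control mean by 0.08, -0.32 and -0.15.

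Assembly factors help build the complexes without being part of the finished enzyme. Against WT, 9 of 11 were lower (background 49.2%, median -0.12), and 8 of 11 lay below both Id controls (background 41.9%, median -0.18). Ndufaf4, a complex I factor, was at 8.42 for WT, 8.54 and 8.66 for the Id controls and 8.01 for Id cKO. This was the largest negative difference of any member from the Id controls, -0.59 ± 0.15 (SE, limma adjusted p = 0.274). Uqcc1, which helps make cytochrome b of complex III, was at 9.94, 10.04, 10.00 and 9.64. Its partners ran the other way. Uqcc3 was at 7.77, 8.09, 7.69 and 8.27, above WT by 0.49, but its Id controls were 0.40 apart. Uqcc2 was at 7.52, 7.19, 7.25 and 7.62, and its probe sets disagreed in sign. Cox7a2l, which joins complexes III and IV, was at 9.69, 9.54, 9.67 and 9.62, within the spread of the other hearts.

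Complex IV passes electrons from cytochrome c to oxygen. Of its 16 genes compared with WT, 11 were lower (background 49.2%), with a median of -0.15. Against the Id controls the median of 15 genes was -0.04. Cox5a, which was at 10.86 for WT, 10.78 and 10.64 for the Id controls and 10.76 for Id cKO, lay between the Id controls. Cox5b was at 12.65, 12.57, 12.55 and 12.44, lowest in Id cKO. Ndufa4, once counted in complex I and now in complex IV, was at 12.86, 12.79, 12.85 and 12.70. Cox6b1 was at 11.70, 11.85, 11.85 and 11.84, higher than WT in each of the other hearts. Of the testis isoforms, Cox6b2 reached the floor only in WT, at 6.04, and Cox7b2 and Cox8c in none of these hearts.

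The heart and muscle isoforms of complex IV differed from their common counterparts. Cox6a2, Cox7a1 and Cox8b are the isoforms of striated muscle, and Cox6a1, Cox7a2 and Cox8a serve most other tissues. Cox6a2 was at 12.50 for WT, 12.31 and 12.29 for the Id controls and 12.04 for Id cKO. Cox7a1 was at 12.54, 12.22, 12.43 and 12.04. Cox8b was at 12.26, 12.18, 11.98 and 11.82. In each of the 3 the WT array was highest, both Id controls lay between and Id cKO was lowest. The differences of Id cKO from WT were -0.46, -0.50 and -0.45, and Cox7a1 was the complex IV gene with the most negative difference. The differences from the Id control mean were -0.26, -0.28 and -0.26 (limma adjusted p = 0.483, 0.527 and 0.543). With 1 Id control left out, the difference of Cox6a2 stayed between -0.28 and -0.25. Cox7a1 was at -0.38 without Id control 1 and -0.17 without Id control 2, and Cox8b at -0.16 and -0.36. The counterparts showed no such order: Cox6a1 was at 8.67, 8.67, 8.97 and 8.82, Cox7a2 at 10.11, 10.26, 10.03 and 10.05, and Cox8a at 9.10, 9.13, 8.91 and 9.14.

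The 250 bases before the start of the gene are shown for the 2 muscle isoforms with a RefSeq promoter entry (GRCm38.p6) and for their counterparts to set isoform and counterpart side by side. Id proteins act by holding back E proteins, whose site is the E-box, CANNTG on either strand. E-boxes are in capitals.
Cox7a1, chr7:30183921-30184170, plus strand: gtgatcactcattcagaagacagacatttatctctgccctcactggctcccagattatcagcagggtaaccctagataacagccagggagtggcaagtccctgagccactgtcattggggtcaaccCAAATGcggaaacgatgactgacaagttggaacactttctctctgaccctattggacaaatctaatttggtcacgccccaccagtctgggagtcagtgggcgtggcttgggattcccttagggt
Cox7a2, chr9:79759854-79760103, minus strand: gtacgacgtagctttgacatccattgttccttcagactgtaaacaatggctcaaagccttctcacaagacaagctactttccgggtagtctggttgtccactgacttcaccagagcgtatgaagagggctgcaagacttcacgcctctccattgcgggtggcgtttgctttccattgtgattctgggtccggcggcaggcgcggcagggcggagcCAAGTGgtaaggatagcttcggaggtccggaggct
Cox8b, chr7:140900447-140900696, minus strand: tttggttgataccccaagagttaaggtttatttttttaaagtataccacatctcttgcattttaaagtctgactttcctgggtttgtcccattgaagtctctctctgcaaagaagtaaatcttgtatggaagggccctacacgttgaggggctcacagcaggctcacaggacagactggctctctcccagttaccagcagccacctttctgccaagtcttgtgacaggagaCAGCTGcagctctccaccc
Cox8a, chr19:7217617-7217866, minus strand: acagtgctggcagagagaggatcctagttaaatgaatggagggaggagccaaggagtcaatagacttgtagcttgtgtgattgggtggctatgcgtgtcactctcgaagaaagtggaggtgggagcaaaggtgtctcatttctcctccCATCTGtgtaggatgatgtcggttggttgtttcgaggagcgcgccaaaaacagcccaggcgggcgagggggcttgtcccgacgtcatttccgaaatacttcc
Each of the 4 held 1 E-box, CAAATG in Cox7a1, CAAGTG in Cox7a2, CAGCTG in Cox8b and CATCTG in Cox8a. The muscle isoforms thus did not differ from their counterparts in the number of E-boxes in this window. Over the family, 60.5% of 81 promoters (76 genes) held an E-box, against 66.2% of 32851 promoters of all genes. The CAGCTG form, which is 1 of the E-box spellings, was in 8.64% and 13.0%. Motifs of known regulators of mitochondrial genes, searched on both strands, were AAGGTCA, bound by estrogen-related receptors, in 6.17% against 4.08%, GCGCATGC, the core of the NRF1 site, in 11.1% against 2.26%, and CCGGAAGT, for ETS factors, in 3.7% against 2.88%. None of these 3 was found in the 4 windows shown. A match is a description of the letters and not a measured site.

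Cox4i2 had by far the largest difference of any member, and it was upward. It encodes an isoform of subunit 4 known from lung, from pericytes of vessel walls and from cells at low oxygen, where it can replace Cox4i1. Cox4i2 was at 7.41 for WT, 7.22 and 7.94 for the Id controls and 10.07 for Id cKO. The Id cKO level stood above all 3 other hearts, by 2.66 over WT (6.31-fold) and 2.48 ± 0.33 (SE) over the Id control mean (5.60-fold, limma adjusted p = 0.207). Cox4i1 was at 12.19, 12.13, 12.05 and 12.05, with Id cKO beside Id control 2. Ndufa4l2, which is related to Ndufa4 and also known from low oxygen, was at 7.53, 7.85, 7.47 and 7.89. Its Id cKO level was the highest of these 4, just above that of Id control 1.

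Cox4i2 was also high in the incubated Id cKO hearts, which are outside those comparisons. After quantile normalization it was at 7.05 for WT, 6.82 and 7.50 for the Id controls, 9.66 for Id cKO, 9.65 in the treated and 10.15 in the untreated heart. All 3 hearts of Id cKO genotype were above all 3 others, by 2.69 ± 0.22 (SE, n = 3 and 3, limma adjusted p = 0.00242). Over 16 settings the adjusted p ranged from 0.000207 to 0.0294 and the difference from 1.89 to 2.88. Without the Id cKO array, the pair stood 2.77 above WT and Id control (limma adjusted p = 0.000207, in a fit where 3247 of all 9965 genes passed). Cox4i2 was chosen with earlier results of these data known, so the pair is not an independent check. The pair has a date code of its own and was incubated, so that in this last comparison genotype, date and incubation cannot be told apart. With the date code as a block, an alternative chosen after seeing the data, the 3-against-3 difference rests on the Id cKO, WT and Id control 2 arrays and was 2.38 (limma adjusted p = 0.0149).

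Most markers of pericytes and endothelium, but not all, were also higher in the hearts of Id cKO genotype. Those of smooth muscle were mostly lower in Id cKO than in both Id controls. Of 10 pericyte markers, 9 were above both Id controls in Id cKO (background 33.5%, median 0.50) and 8 above WT (background 50.8%), and 5 rose in the 3-against-3 comparison (background 2.55%): Kcnj8, Pdgfrb, Cspg4, Mcam and Vtn. Mcam, a surface adhesion protein, had the largest of these differences, 1.41 ± 0.17 (SE). Abcc9 went the other way, with Id cKO at -0.51 against WT and -0.44 against the Id control mean, and -0.51 in the 3-against-3 comparison. Against WT, Colec11 was also lower, at -0.13, and Rgs5 differed by only 0.01. The summed level of the 10 pericyte markers after quantile normalization was 4606 for WT, 5157 and 3898 for the Id controls, 5509 for Id cKO and 7483 and 6603 in the pair. Of 8 endothelial markers, 7 were above WT (background 50.8%) and 6 above both Id controls in Id cKO (background 33.5%). In the 3-against-3 comparison 2 of them rose (background 2.55%). Of 6 smooth muscle markers, 4 were above WT (background 50.8%, median 0.24). Against both Id controls 1 was above (background 33.5%) and 4 below (background 41.9%), with a median of -0.63. Of 5 compared 3 against 3 none passed (background 2.55% higher and 1.81% lower, median -0.12). Acta2, the actin of smooth muscle, was at 9.81 for WT, 11.10 and 11.33 for the Id controls and 10.09 for Id cKO. Of 19 genes of the hypoxia response, 17 were above WT (background 50.8%, median 0.40) and 12 above both Id controls (background 33.5%). Of these, 4 rose in the 3-against-3 comparison (background 2.55%), among them Adm, which encodes a vessel-dilating peptide, at 1.91 ± 0.26 (SE). Their part in the Cox4i2 result was not tested.

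**Figure D3:**
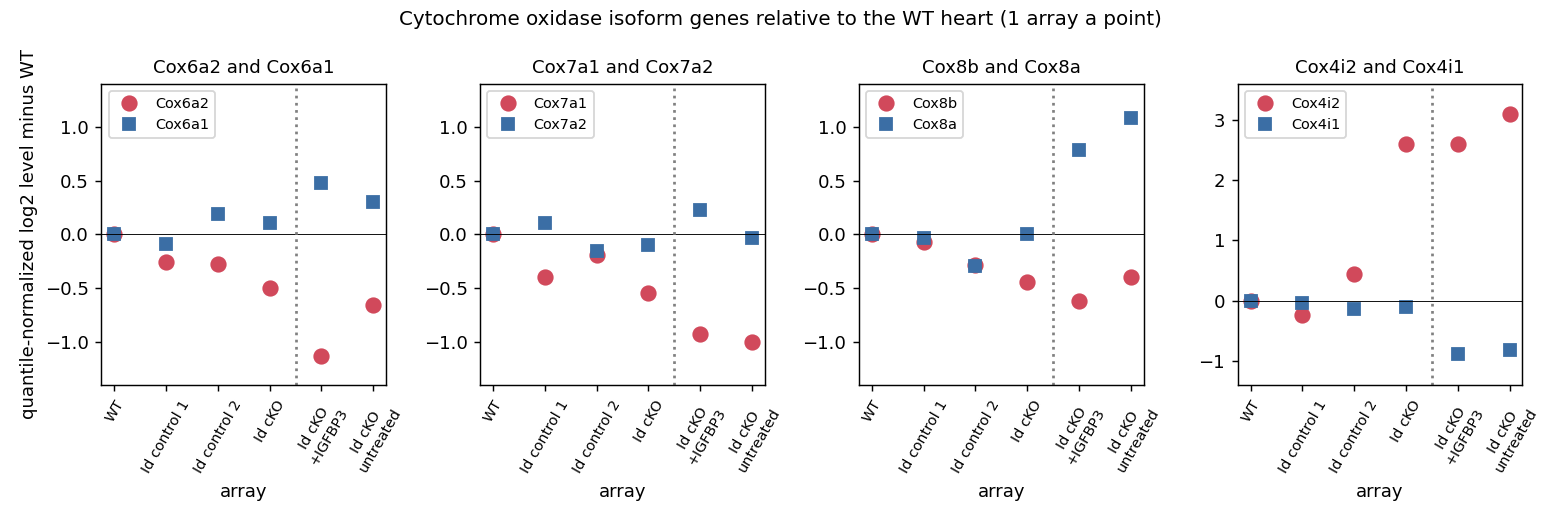
Quantile-normalized log2 level minus that of the WT array for complex IV isoform genes (circles, muscle or alternative isoform; squares, common counterpart), 1 array a point; the dotted line separates the incubated pair and WT is 0 by construction. Cox6a2, Cox7a1 and Cox8b lie below 0 in all 5 other hearts, and Cox4i2 stands at least 2 above WT in the 3 hearts of Id cKO genotype alone.

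The 3 hearts of Id cKO genotype were set against WT and both Id controls over all members, after quantile normalization. Of 89 members compared, 72 were lower by their mean (background 53.5%), with a median difference of -0.39 against -0.04 over all genes. All 3 Id cKO arrays were below all 3 others for 40 of the 89 members (44.9%, background 17.8%) and above for 4, Cox4i2, Cox8a, Ndufa4l2 and Uqcc3 (background 14.0%). Bright genes were lower as a class. With a mean of at least 10 in either group, the medians were -0.40 over 62 members and -0.18 over 630 genes. Of these bright members 50.0% had all 3 below all 3, against 31.4% of the bright genes. Of the 89 members, 2 passed in limma, Cox4i2 (background 2.55% higher) and Ndufa9 (background 1.81% lower). Ndufa9 fell by 0.76 ± 0.17 (SE, n = 3 and 3, limma adjusted p = 0.0461). Its adjusted p ranged from 0.00293 to 0.908 over 17 settings and was above 0.05 whenever an array other than Id cKO was left out, with median centring, with cyclic loess and with no floor. With the date code as a block its difference was -0.43 (limma adjusted p = 0.908), the member median was -0.13, and Cox4i2 alone passed, beside 59 of all 10099 genes. At an unadjusted p below 0.05, 41 members were lower (background 14.3%) and 4 higher (background 12.6%). By complex, all 3 were below all 3 for 5 of the 6 core genes of complex I, 4 of 4 in complex II and all 3 muscle isoforms of complex IV (2 of 3 after cyclic loess). Medians were -0.42 in complex I, -0.53 in complex II, -0.39 in complex III, -0.04 in complex IV, -0.37 in complex V and -0.36 among assembly factors. The sign of complex IV turned with the scaling, to 0.08 with median centring.

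Much of this difference lay in the incubated pair. Set against the other 4 arrays after quantile normalization, the pair had a median difference of -0.46 over the 92 genes, against -0.04 over all genes with a mean of at least 6. Among genes with a mean of at least 10 it was -0.50 over 58 members and -0.22 over all 522. Without the Id cKO array 55 of 89 members passed limma, 3247 of all 9965 genes did, and the member median was -0.52. Without the untreated Id cKO array the median was -0.29 and 1 member passed. Genotype, date code and incubation cannot be told apart in the pair. Within the code that WT, Id control 2 and Id cKO share, the member medians of Id cKO were -0.18 against WT and -0.12 against Id control 2. In the pair, 19 members were higher than in the other 4 arrays, 5 of them by over 0.5: Cox4i2, Cox5a, Cox8a, Atp5mpl and Uqcc3. After quantile normalization, Cox5a was at 10.48 for WT, 10.36 and 10.20 for the Id controls, 10.38 for Id cKO and 11.44 and 11.52 in the pair.

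The ratios of muscle isoform to counterpart stayed low in the pair, but not through the muscle isoforms alone. After quantile normalization, the log2 ratio of Cox8b to Cox8a was -0.04 and 0.01 relative to WT in the Id controls, -0.45 in Id cKO and -1.41 and -1.48 in the pair. The ratio of Cox7a1 to Cox7a2 was -0.50 and -0.03 in the Id controls, -0.44 in Id cKO and -1.15 and -0.97 in the pair. That of Cox6a2 to Cox6a1 was -0.17 and -0.47, then -0.60, -1.61 and -0.96. On the same scale, the difference from WT was 0.78 and 1.08 for Cox8a in the pair, and -0.62 and -0.40 for Cox8b. Cox8b was at -0.45 in Id cKO. Cox6a1 also lay above WT in the pair, by 0.47 and 0.30. Cox6a2 and Cox7a1 lay further from WT there than their counterparts. The common subunit Cox4i1 lay below WT too, at -0.88 and -0.81, so a fall in the pair was not particular to muscle isoforms. The Cox8 and Cox6a ratios were lower in all 3 Id cKO hearts than in the other hearts, while the Cox7a ratio of Id cKO lay between those of the Id controls. No gene of these pairs passed in limma: the adjusted p was 0.115 for Cox6a2, 0.0873 for Cox7a1, 0.163 for Cox8b and 0.13 for Cox8a. Without the Id cKO array, Cox7a1 (-0.78, limma adjusted p = 0.00899) and Cox6a2 (-0.73, limma adjusted p = 0.0191) passed. They were among 55 of 89 members and 3247 of all 9965 genes that passed in that fit, where genotype, date code and incubation cannot be told apart.

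Relative to all genes, members lay lower in the Id controls than in WT under each scaling. The sign of their own median depended on the scaling. Both Id control arrays were below WT for 46 of 90 members (51.1%, background 28.5%) and above it for 23 (25.6%, background 45.5%). The median was -0.04, against 0.05 over all genes, and turned to 0.05 against 0.17 with median centring. The member median minus that of all genes was -0.09 as deposited and -0.11 with median centring. It was -0.11 with cyclic loess and -0.11 with quantile normalization. Complex I had a median of -0.11, with 22 of 34 genes below WT on both arrays, and complex II one of 0.08, with none. Cox6a2, Cox7a1 and Cox8b were below WT on both arrays, with differences of -0.33 and -0.12 for Cox7a1 and of -0.08 and -0.28 for Cox8b. In limma 0 members passed (background 0.0% in either direction) and 3 had an unadjusted p below 0.05 (background 7.26%), Cox6b2, Ndufb3 and Ndufs5. WT and the Id controls differed in the level of the sex-linked genes, so sex cannot be told apart from genotype for either Id control against WT. For Id control 1, date cannot be told apart from genotype as well. The Id controls themselves differed by a median of 0.02 over 89 members, and Id control 1 was the lower for 40 of them (background 50.0%).

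IGFBP3-treated and untreated Id cKO hearts shared a date code and were compared as deposited. Of 87 members compared, 61 were higher in the treated heart (70.1%, background 54.3%) and 26 lower (background 45.1%), with a median of 0.12 against 0.05 over all genes. The median was 0.03 after cyclic loess, with 39 of 88 members lower. At least 1.5-fold higher were Ndufs4, Cox7a2l and Cox7b (background 7.65%), and 1.5-fold lower was Sdhc (background 6.74%). Ndufs4, an accessory subunit needed for a stable complex I, was at 9.08 treated and 8.27 untreated. Cox7a2l was at 8.45 and 7.80, and Cox7b, a small complex IV subunit, at 10.05 and 9.42. Sdhc was at 8.58 treated and 9.40 untreated, while Sdha and Sdhb of the same complex were higher in the treated heart, both by 0.31. Assembly factors had the highest median, 0.32, with 8 of 9 higher. The muscle isoforms had a median of -0.17. No member was 2-fold apart (background 0.495% higher and 0.803% lower), in limma 0 passed (background 0.0%) and 11 had an unadjusted p below 0.05 (background 23.0%). Both hearts are single arrays, so that the differences have no replicate check.

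Other genes of energy metabolism were examined as lists. Of 19 genes of the citric acid cycle and pyruvate dehydrogenase, 18 were lower in Id cKO than in WT (background 49.2%, median -0.17), 18 lay below both Id controls (background 41.9%, median -0.32), and 0 passed in limma in either fit. Idh2, a mitochondrial isocitrate dehydrogenase, was lowest against WT at -0.49, and Suclg2, of succinyl-CoA synthetase, lowest against the Id controls at -0.48. Of 12 genes of energy transfer and exchange, 10 were below both Id controls (background 41.9%). Slc25a12, the aspartate-glutamate carrier of heart mitochondria, had the largest difference, -0.63, and 2 genes of this list fell in the 3-against-3 comparison (background 1.81%). Of 33 assembly factors outside the symbol rule, 26 were lower than WT (background 49.2%) and 18 below both Id controls (background 41.9%), and the copper chaperone Cox19 was higher than WT by 0.78. Of the 13 subunits encoded by mitochondrial DNA, 0 had a probe set with 1 symbol, and they were not analysed here.

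Regulators of mitochondrial biogenesis were less even. Of 15, 11 were lower in Id cKO than in WT (background 49.2%) and 11 below both Id controls (background 41.9%), and 1, Ppara, a receptor that drives fatty acid oxidation, fell in the 3-against-3 comparison by 0.98 ± 0.19 (SE, background 1.81%). Ppargc1a, a coactivator of respiratory chain genes, was at 10.49 for WT, 9.20 and 11.31 for the Id controls and 9.22 for Id cKO. Id control 1 was thus as low as Id cKO, and the part of this coactivator in the respiratory chain levels was not tested. Of 8 antioxidant and uncoupling genes, 6 were lower than WT (background 49.2%), and 2 fell in the 3-against-3 comparison (background 1.81%): Ucp3, an uncoupling protein of muscle, by 1.48 ± 0.24 (SE), and Nnt, which makes mitochondrial NADPH, by 1.06 ± 0.21 (SE).

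Cell type markers were set beside these values. Of the 8 cardiomyocyte markers, 7 were lower in Id cKO than in WT (background 49.2%), with a median of -0.05, and 5 below both Id controls (background 41.9%), with a median of -0.13. Their summed level after quantile normalization was 76070 for WT, 81140 and 76330 for the Id controls, 71730 for Id cKO and 60020 and 55170 in the pair, so that it was lowest in the 3 hearts of Id cKO genotype. Of 4 atrial muscle markers, Myl7, Myl4 and Sln were high only in Id control 2: Myl7 was at 5.28 for WT, 5.31 and 12.27 for the Id controls and 5.38 for Id cKO, and Myl4 at 6.69, 6.83, 12.97 and 6.81. Nppa, a natriuretic peptide, was at 10.29, 11.30, 13.71 and 14.03, high in Id control 2 and in Id cKO, and at 13.24 and 13.20 in the pair. Fibroblast markers summed to 3465 for WT, 4000 and 6194 for the Id controls, 4532 for Id cKO and 9150 and 8541 in the pair. The part of cell composition in the lower respiratory chain levels was not tested.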

How the data were processed

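The authors deposited log2 expression levels for each array, made with Affymetrix Expression Console and RMA per the submitters' processing notes (no versions given in the sources used here). The table holds 35557 probe sets. Of these 21789 carry 1 gene symbol in the platform annotation, 1621 several and 12147 none, and only the first kind was used. The 92 members have 118 probe sets, and 18 members have several. A further 6 probe sets name Cox7c, Ndufs5 or Ndufb4 among several symbols and were not used. Cox7c and Ndufb4 fit the symbol rule but are therefore not among the 92 members.

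A gene entered a comparison if either group averaged 6 or more (log2), and p-values were adjusted over all genes compared (Benjamini-Hochberg, limit 0.05). limma 3.58.1 under R 4.3.3 was fitted over 6 arrays in 5 groups (1 residual degree of freedom), and 3 arrays against 3 after quantile normalization. The fits were run on simulated data with planted differences, as a check of the estimated differences only. Those data held no date or incubation effect. Alternatives were the floor, the scaling, the choice of probe set, a trended prior, leaving out each array and, added after seeing the data, the date code as a block. The number of arrays limits the precision. Members, lists and tests were chosen with earlier results of these data known. Genes were named where they were 1.5-fold apart, at the extremes of a complex, isoforms or their counterparts, or list members furthest apart. The others, such as core subunits and the genes given to show a complex's members, were chosen after their values were seen. Promoters are from RefSeq.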

Additional observations from a re-analysis of the deposited data

How the results depend on the processing

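Over the alternatives to the shares, medians and numbers of members passing limma, 134 values kept their direction and were counted as unmoved. Another 11 moved further, 9 were lower in the number passing, 2 higher, and 1 turned. Values counted as unmoved could still differ. The share of members below both Id controls, 65.2%, was 49.4% after quantile normalization and 53.9% after cyclic loess (all genes, 39.8% and 39.7%). The median of -0.12 was -0.07 and -0.08 there. With median centring, the share of members below WT on both Id control arrays was 28.1%, their median turned to 0.054, the Id cKO minus WT median was -0.11, the treated minus untreated median 0.19, and the 3-against-3 median -0.31 with 1 member passing limma. Cyclic loess gave medians of 0.033 for the incubated pair and -0.32 for 3 against 3, with 1 member passing, and no floor also left 1. On values as deposited, which mix the scales of the arrays, the 3-against-3 median was -1.17 and 28 members passed. Leaving out 1 array at a time gave medians from -0.52 to -0.29, shares of members with all Id cKO arrays below the others from 44.9% to 71.9%, and 1 to 55 members passing, the upper ends without the Id cKO array. The Id control minus WT difference of Cox4i2, 0.17, was 0.53 without Id control 1 and -0.19 without Id control 2. The causes were not tested, other than that fewer arrays entered. Of the differences between Id cKO and WT, 69 of 78 negative ones kept their sign under 4 scalings, and of those between Id cKO and the Id control mean 57 of 64. At a floor of 10, Cox4i2 was not compared in the 3-against-3 fit. No paired analysis was possible because the labels give no replicate numbers. With the date code as a block in the 3-against-3 fit, chosen after seeing the data, the median was -0.13 and 1 member passed. The same block leaves no residual degrees of freedom in the 5-group fit and was not run there.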

Other observations

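The 5 genes whose level ran closest to Cox4i2 over the 6 quantile-normalized arrays, among 4034 genes with a range of at least 1 (log2), were Gprc5b, Nos3, Sema3f, Inhbb and Cda. Nos3 encodes the nitric oxide synthase of endothelium and was at 7.67 for WT, 7.78 and 7.91 for the Id controls and 8.69 for Id cKO, as deposited. Gprc5b, an orphan receptor, was at 7.27, 7.29, 7.60 and 9.02. In both genes the Id cKO array was the highest of these 4, which follows from choosing them for their likeness to Cox4i2.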
